A study of Homo sapiens with 4 samples.

Results

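The genes described here are 9 members of the type I interferon response: the effectors IFIT1, IFIT2, IFIT3, ISG15, OAS1 and OAS3, the transcription factor IRF9, and the RNA sensors DDX58 and IFIH1. They were chosen by gene symbol and were all found among the 18917 genes of a count table of WT and THUMPD1 KO cells. The line was HEK-293T, which the sample labels call HEK293, an immortalized line from human embryonic kidney, grown with 10% serum and 2 mM glutamine and sequenced as total RNA in 4 libraries, 2 per genotype. The labels name neither an interferon nor an RNA stimulus for either genotype. The KO was made with Cas9 and a pair of guides followed by sorting of single cells, so that the KO and the clone cannot be told apart. The comparison asks whether loss of THUMPD1, the protein that guides acetylation of cytidine in tRNA, goes with a different level of these transcripts. Of the 9 genes, 6 were expressed highly enough to be tested and none of the 6 passed the test. Among all tested genes 20.9% passed, and 6.76% of those within the range of mean level of the 6. IFIT2 and IFIT3 had at most 4 counts in a library, and OAS1 had no count in any library.

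Cells recognize viral RNA in the cytosol through helicases. DDX58, also called RIG-I, binds short RNA with a triphosphate at its end, and IFIH1, also called MDA5, binds long double-stranded RNA, and both signal through the mitochondrial adaptor MAVS to the production of interferon. Secreted interferon acts through its receptor and the kinases JAK1 and TYK2 on a complex of STAT proteins and IRF9, which binds a sequence called the interferon-stimulated response element (ISRE) in front of its target genes. The IFIT proteins bind viral RNA and block its translation, OAS1 and OAS3 make 2'-5' oligoadenylates, a second messenger of the antiviral response, and ISG15 is a ubiquitin-like protein that is attached to other proteins. DDX58, IFIH1 and IRF9 are themselves induced by interferon, so that the pathway feeds on itself.

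The ISRE is the sequence through which this complex acts, and stretches that match its core are shown for the 5 members whose promoters hold one, read from RefSeq promoters on GRCh38.p14. In capitals is every match to GAAANNGAA, a core that many ISREs hold, on either strand, so that a core on the opposite strand reads as its reverse complement, and matches that overlap run together. Each line is read 5′ to 3′ along the strand of the gene, around the core nearest to the start.
IFIT1: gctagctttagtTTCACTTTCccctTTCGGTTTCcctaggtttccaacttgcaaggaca
IFIT3: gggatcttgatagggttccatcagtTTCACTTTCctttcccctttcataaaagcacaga
ISG15: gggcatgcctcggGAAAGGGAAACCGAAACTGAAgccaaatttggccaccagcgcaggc
OAS3: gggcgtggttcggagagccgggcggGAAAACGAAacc
IFIH1: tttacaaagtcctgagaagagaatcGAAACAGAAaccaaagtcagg
The stretches lie at chr10:89392496-89392554 (IFIT1, plus strand), chr10:89332454-89332512 (IFIT3, plus strand, the second of 2 starts), chr1:1013371-1013429 (ISG15, plus strand), chr12:112938437-112938473 (OAS3, plus strand) and chr2:162318685-162318730 (IFIH1, minus strand).

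Of the 9 genes, 8 had a RefSeq promoter, and IFIT2 had no entry. In the 250 bases before the start, 5 of the 8 held the ISRE-like core and 3 did not. The core was found in 6.88% of all 35116 promoters searched over the same length. IFIH1 held 4 cores, which began 164, 158, 152 and 21 bases before its start, and those at 164, 158 and 152 overlap in a single stretch. ISG15 held 3, at 113, 107 and 101 bases, which also overlap in a single stretch. IFIT1 held 2, at 115 and 102 bases, and OAS3 held 2, at 143 and 12 bases. IFIT3 held 2 before its first start and 3 before its second, where those at 99 and 93 bases overlap. The 3 promoters without this core were those of OAS1, IRF9 and DDX58. A second core, TTCNNNGAA, which STAT proteins bind in genes induced by interferon gamma, was found once each in OAS1 and IRF9 and in 6.57% of all promoters. These are matches of letters and not measured binding, and no match says only that the letters are not in the 250 bases searched. The plot of core positions shows how the matches lie before each start.

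**Figure D1:**
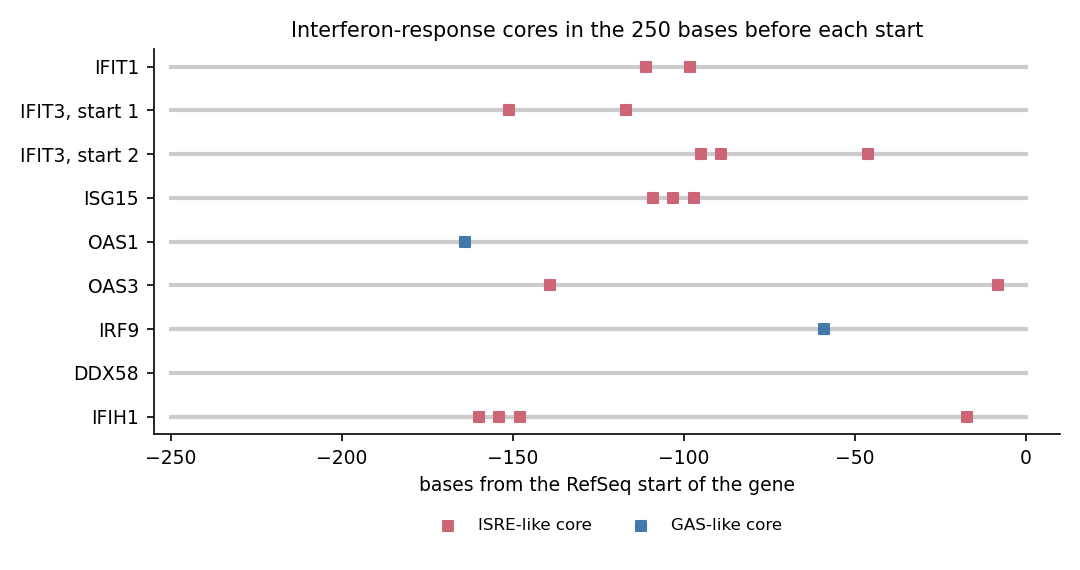
Matches to the ISRE-like core (red) and the GAS-like core (blue, TTCNNNGAA) in the 250 bases before the RefSeq start of 8 of the 9 genes; each line is 1 start, the x axis is the distance from that start in bases, and squares are centred on the core. IFIH1 had 4 ISRE-like cores and ISG15 had 3, while DDX58 had neither core.

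The WT libraries totalled 7875722 and 11362363 counts, the KO libraries 11156804 and 10446988. A count of 3, taken as the floor of a library, was worth 0.259 to 0.391 CPM (counts scaled to the library's size, here by edgeR's TMM method). THUMPD1 itself, the check of the labels, had 46.4 and 42.6 CPM in the WT libraries and 6.13 and 5.45 CPM in the KO libraries. Its log2 fold change, KO against WT throughout, was -2.93 (standard error 0.17, adjusted p = 1.27e-12). All adjusted p-values of edgeR are from its quasi-likelihood F test and were adjusted after Benjamini and Hochberg over all tested genes. Of the 13128 genes that reached 1 CPM in 2 or more libraries, the test called 2748, or 20.9%, at an adjusted p under 0.05, with 8.79% higher and 12.1% lower in KO cells. That is 1154 higher and 1594 lower, and scaling by library size alone turned the split to 2081 higher and 1158 lower. With 2 libraries per genotype the smallest two-sided p of an exact permutation test is 0.333, so the p-values rest on a spread shared across genes. Nothing in the labels says that the libraries of a genotype came from separate cultures, and the p-values measure the spread between these libraries.

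All 9 transcripts were scarce. Together they took 13.3 and 16.7 CPM in the WT libraries and 15.4 and 12.9 CPM in the KO libraries, so that the genotypes overlapped in their sum. In bulk RNA, fewer expressing cells and less RNA per cell cannot be told apart. To compare one gene with another, CPM were divided by the length of the GENCODE canonical transcript in kilobases (RPKM). On this scale the order in WT cells was ISG15, IRF9, IFIT1, DDX58, IFIH1, OAS3, IFIT3, IFIT2 and OAS1. ISG15 was at 2.60 ± 1.37 RPKM in WT and 3.18 ± 2.41 RPKM in KO cells (SD, n = 2 per genotype), and its mean level per length lay at the 41.1 percentile of 16745 genes with a count and a known length. IFIT1 and IRF9, at 1.17 ± 0.111 and 1.31 ± 0.750 RPKM in WT cells, could not be set in order, since the range of IRF9 enclosed that of IFIT1, and IRF9 also overlapped ISG15. IFIH1 and OAS3, at 0.302 ± 0.22 and 0.228 ± 0.126 RPKM in WT cells, overlapped as well. In KO cells OAS3 and IFIH1 changed places and overlapped again, at 0.331 ± 0.116 and 0.305 ± 0.125 RPKM, and the other 7 genes kept their places. IFIT2, with a level per length at the 9.0 percentile, was the lowest of the genes that had any count.

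**Figure D2:**
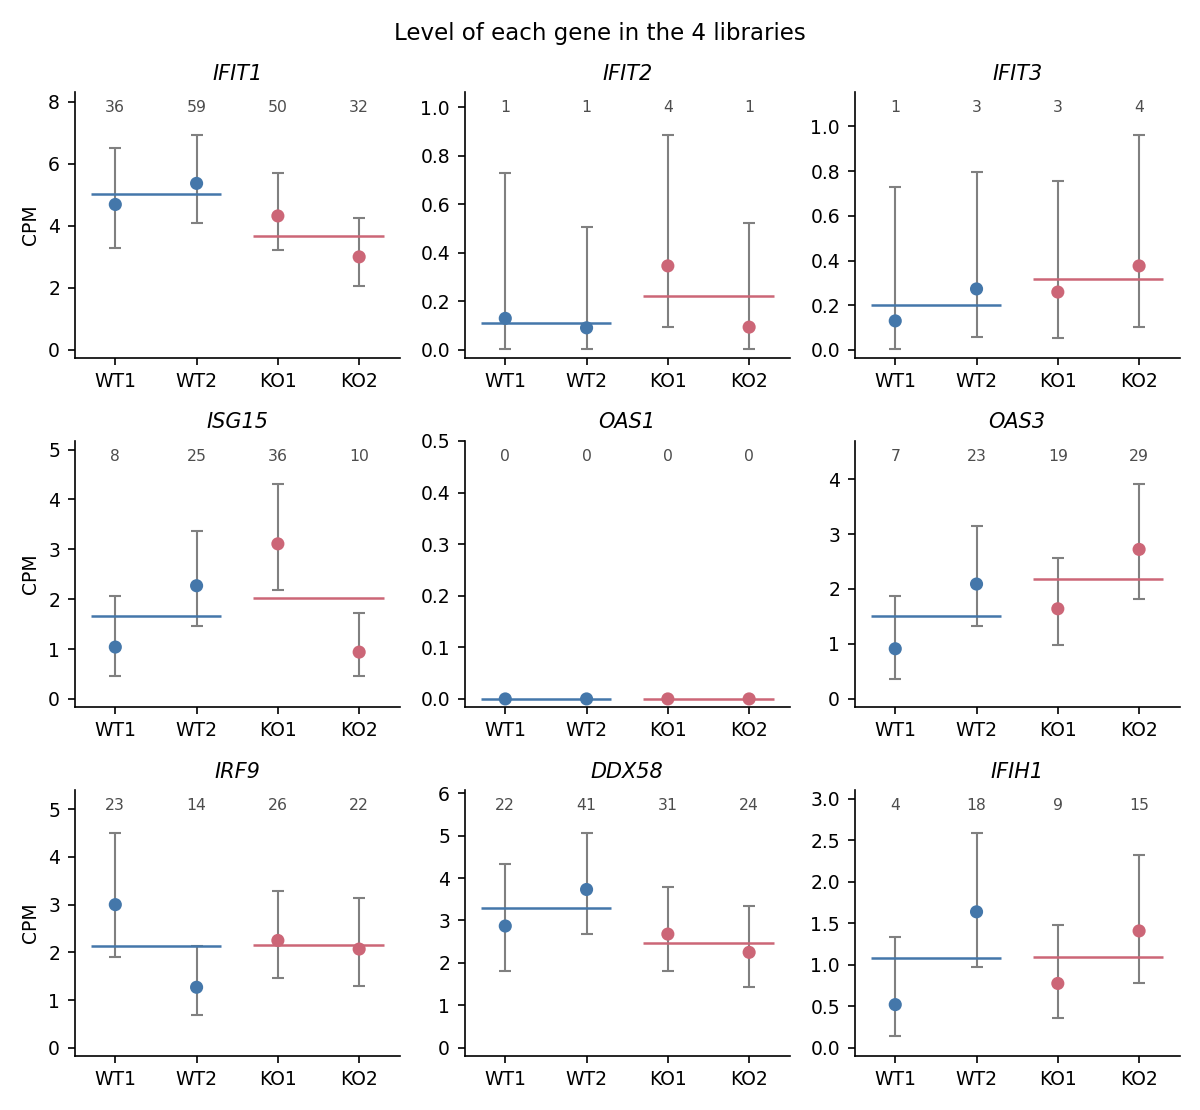
Level of each of the 9 genes in CPM (y axis, a separate linear scale for each gene) in the libraries WT1, WT2, KO1 and KO2; points are single libraries, bars their exact 95% Poisson intervals, which cover counting error only (none is drawn at 0), horizontal lines the mean of each genotype, and the figures along the top the counts. In 2 of the 6 tested genes, IFIT1 and DDX58, both KO libraries lay below both WT libraries, while the genotypes did not overlap in 60.4% of all 13128 tested genes.

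IFIT1, a cap-binding protein that blocks translation of foreign RNA, was the most deeply counted member. The WT libraries held 36 and 59 counts of it, or 4.69 and 5.37 CPM, and the KO libraries held 50 and 32, or 4.32 and 3.0 CPM. Both KO libraries were below both WT libraries, although KO replicate 1 lay within the counting interval of WT replicate 1, from 3.29 to 6.50 CPM. Mean levels were 5.03 ± 0.476 CPM for WT and 3.66 ± 0.929 CPM for KO (SD over 2 libraries each). The log2 fold change was -0.46 (standard error 0.36), with a 95% confidence interval from -1.20 to 0.28, and did not pass the test (adjusted p = 0.395 from edgeR). The interval runs from 0.435 to 1.22 times the WT level. In GENCODE 44 the gene has 2 exons and spans bases 89392546 to 89406487 of chromosome 10 (GRCh38).

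IFIT2 and IFIT3, neighbours of IFIT1 on chromosome 10 that act in a complex with it, did not pass the filter on low counts. IFIT2 was counted once in each WT library, and 4 times and once in the KO libraries. Pooled, this was 2 against 5 counts, a KO to WT ratio of 2.10 with an exact 95% counting interval from 0.344 to 22. IFIT3 had 1 and 3 counts (WT) against 3 and 4 (KO), with a pooled ratio of 1.47 and an interval from 0.373 to 6.84. With the filter removed, neither passed edgeR's test (adjusted p = 0.778 for IFIT2 and 0.853 for IFIT3). Both counting intervals include a decrease as well as a several-fold increase, so that changes of that size were not detectable at this depth. The span of LIPA, a lysosomal lipase gene on the opposite strand, covers all 3 IFIT genes in GENCODE 44, and whether the counting used strand is not stated. LIPA was at 38.1 ± 0.189 CPM (WT) against 40.1 ± 0.0507 CPM (KO) and did not pass the test (adjusted p = 0.689 from edgeR). The IFIT3 transcript also holds stretches of at least 100 bases that match transcripts of 180 other genes at 90% identity or more, so its counts are uncertain.

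ISG15, the ubiquitin-like modifier, had the largest gap between libraries of 1 genotype among the 6 tested members. Its counts were 8 and 25 for WT, or 1.04 and 2.27 CPM, and 36 and 10 for KO, or 3.11 and 0.939 CPM. The highest and the lowest of the 4 libraries were both KO. KO replicate 1 was 3.31 times KO replicate 2, and their counting intervals did not overlap, which was not seen for any other member within a genotype. Its log2 fold change was 0.25 (standard error 0.60), with an interval from -0.98 to 1.48 (adjusted p = 0.810 from edgeR). Its sign turned with a single library: it was -0.85 without KO replicate 1, -0.15 without WT replicate 1 and 0.96 without WT replicate 2, and no library left out gave a call. ISG15 lies on chromosome 1, from 1001138 to 1014540.

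OAS1 and OAS3 are adjacent on chromosome 12 and both make 2'-5' oligoadenylates, but they differed in level. OAS1, from 112905856 to 112933219, had 0 counts in all 4 libraries, which hold 40841877 counts in all. A floor of 3 counts over the 4 libraries puts the level that 0 counts allow at up to 0.0734 CPM, counting error only. OAS3, from 112938051 to 112976460, was counted 7 and 23 times in WT, and 19 and 29 times in KO cells. Its CPM were 0.913 and 2.09 in WT and 1.64 and 2.72 in KO cells, so that WT replicate 2 lay between the KO libraries. The log2 fold change of 0.47 (standard error 0.57) was the highest of the 6 tested members, with an interval from -0.69 to 1.64 (adjusted p = 0.603 from edgeR). Leaving out WT replicate 2 gave 1.24 and leaving out WT replicate 1 gave 0.05, with no call in either case.

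DDX58 and IFIH1, the helicases that sense RNA in the cytosol, were both detected in every library. DDX58 had 22 and 41 counts in the libraries of WT cells, or 2.87 and 3.73 CPM, and 31 and 24 in those of KO cells, or 2.68 and 2.25 CPM. Both KO libraries lay below both WT libraries, and KO replicate 1 and WT replicate 1 differed little. The log2 fold change was -0.43 (standard error 0.45), with an interval from -1.36 to 0.50 (adjusted p = 0.542 from edgeR). DDX58, which GENCODE 44 lists as RIGI, spans bases 32455302 to 32526208 of chromosome 9 on the minus strand. In GENCODE 44 an overlapping gene on the same strand shares 4472 bases of its transcript at 100% identity. No gene of the count table was matched to that gene, and the build behind the counts is not stated, so that the counts of DDX58 are uncertain.

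IFIH1 reached 4 and 18 counts for WT, or 0.522 and 1.64 CPM, against 9 and 15 for KO, or 0.777 and 1.41 CPM. Both KO libraries lay inside the range of the WT libraries. The log2 fold change was -0.07 (standard error 0.70), with an interval from -1.51 to 1.37, the widest of the 6 tested members (adjusted p = 0.959 from edgeR). It was 1.04 without WT replicate 2, 0.31 without KO replicate 1 and -0.59 without WT replicate 1. The gene spans bases 162267074 to 162318684 of chromosome 2 on the minus strand.

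IRF9, the DNA-binding part of the complex that acts on the ISRE, had 23 and 14 counts (WT) against 26 and 22 (KO). In CPM these were 3.0 and 1.27 in WT and 2.25 and 2.07 in KO cells, and both KO libraries lay between the WT libraries. The log2 fold change was 0.06 (standard error 0.54), with an interval from -1.05 to 1.18 (adjusted p = 0.949 from edgeR). Leaving out WT replicate 2 gave -0.47, and leaving out WT replicate 1 gave 0.75. IRF9 lies on chromosome 14 from 24161234 to 24168043, where an overlapping gene on the same strand shares 1513 bases of its transcript at 100% identity. No gene of the count table was matched to that gene either, and the counts of IRF9 are uncertain too.

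Across the 6 tested members, 0 were called by edgeR, against 20.9% of all genes tested. Calls were rarer at low counts. Of the 1612 genes whose mean level lay between those of IFIH1 and IFIT1, 1.09 to 4.35 CPM, 109 were called, or 6.76%, and the smallest log2 fold change among those 109 was 1.07 in size. None of the 6 had an unadjusted p under 0.05, by edgeR, DESeq2 or limma-voom, and 3 of the 6 lay above 0. The genotypes did not overlap in 2 of the 6, against 60.4% of all genes tested. The upper ends of the confidence intervals ran from 1.22 times the WT level for IFIT1 to 3.12 times for OAS3. A rise of more than 3.12 times thus lay outside all 6 intervals, while a 2-fold rise lay inside those of ISG15, OAS3, IRF9 and IFIH1. The lower ends ran from 0.352 times the WT level for IFIH1 to 0.618 times for OAS3. A 2-fold fall lay inside the intervals of IFIT1, IRF9, DDX58 and IFIH1. The plot of fold changes shows these intervals beside that of THUMPD1.

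**Figure D3:**
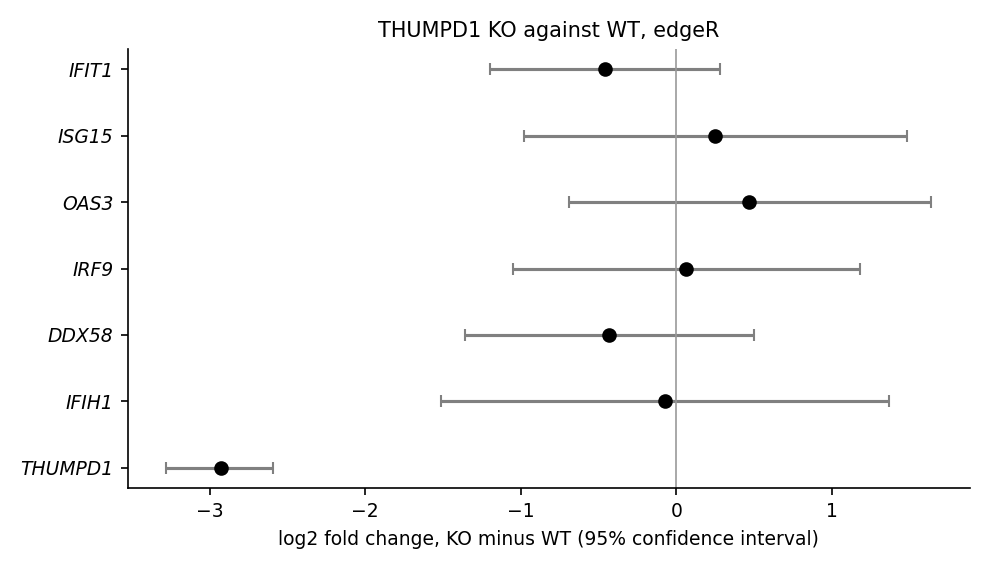
Log2 fold change of KO against WT (x axis) for the 6 tested members and for THUMPD1; points are edgeR estimates from 2 libraries per genotype and bars are 95% confidence intervals. All 6 intervals include 0, and that of THUMPD1, from -3.28 to -2.59, does not.

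The rest of the pathway was read from 6 lists of other genes, 115 of which were in the table. Of these, 64 could be tested, and 5 were called higher and 7 lower in KO cells, together 18.8% of the 64 against 20.9% of all genes tested. The median log2 fold change of the 64 was 0.07, that of all tested genes was 0.01, and 36 of the 64 lay above 0. DESeq2 called 4 of the 64, all of them lower, and 5 were called without KO replicate 1. Across the alternatives no called gene of these lists changed its sign.

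Interferon genes, the ligands of the pathway, were nearly silent. Of 21 in the table, 16 had no count in any library, and none could be tested. The other 5, named after their values were seen, were IFNL2 with 4 counts in WT replicate 2, IFNL1 with 2 counts in KO replicate 1, and IFNE and IFNW1 in WT replicate 1 and IFNA5 in KO replicate 1 with 1 count each. IFNB1, the interferon that cytosolic sensing induces first in most cells, was among those at 0, which is also named after its values were seen.

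The receptors and their signal transducers were expressed, and none of the 15 that could be tested was called, against 20.9% of all genes tested. JAK1, the kinase shared by the interferon receptors, was at 101 and 83.5 CPM (WT) against 83.1 and 92.5 CPM (KO) (log2 fold change -0.07, adjusted p = 0.653 from edgeR). JAK2, a kinase of the interferon gamma receptor, was at 70.8 and 102 CPM (WT) against 62.5 and 98.8 CPM (KO), with an adjusted p of 0.614 from edgeR. PIAS1, an inhibitor of STAT signalling, had a log2 fold change of -0.20 with an adjusted p of 0.0873 from edgeR. The list's log2 fold changes ran from -0.31 to 0.32.

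RNA sensing and signalling genes moved both ways. Of 17 tested, 3 were called higher and 3 lower, together 35.3% against 20.9% of all genes tested. The difference from that share was not tested. The median log2 fold change of the 17 was -0.03. ZC3HAV1, the antiviral protein ZAP that binds CpG-rich RNA, fell from 194 and 308 CPM in WT to 144 and 114 CPM in KO cells, a log2 fold change of -0.97 (standard error 0.13, adjusted p = 3.53e-06 from edgeR). WT replicate 2 stood well above WT replicate 1, and the value was -0.58 without it, while DESeq2 did not call the gene (adjusted p = 0.0597). TRIM25, a ubiquitin ligase that acts in DDX58 signalling, fell from 67.7 and 77.5 CPM to 44.5 and 48.8 CPM, a log2 fold change of -0.64 (standard error 0.10, adjusted p = 5.02e-05 from edgeR), and was called under all 12 alternatives. TICAM1, the adaptor of the receptor TLR3, was lower at a log2 fold change of -1.01 (standard error 0.32, adjusted p = 0.0255 from edgeR), but not by DESeq2 (adjusted p = 0.0695), without WT replicate 1 or without KO replicate 2.

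The 3 called higher changed by less. EIF2AK2, the kinase PKR that double-stranded RNA activates, rose from 73.4 and 69.0 CPM to 87.8 and 83.1 CPM, a log2 fold change of 0.27 (standard error 0.09, adjusted p = 0.0294 from edgeR). PRKRA, an activator of that kinase, rose by 0.29 on the log2 scale (adjusted p = 0.0263 from edgeR), and TANK, an adaptor of the kinase TBK1, by 0.47 (adjusted p = 0.0473 from edgeR). DESeq2 called none of these 3, and each lost its call without KO replicate 1. Leaving out WT replicate 2 also ended the calls of EIF2AK2 and TANK, and leaving out WT replicate 1 or KO replicate 2 that of PRKRA. ADAR, which edits double-stranded RNA, had 392 and 390 CPM (WT) against 348 and 356 CPM (KO) and did not pass (adjusted p = 0.0728 from edgeR), nor did MAVS, with 220 and 226 CPM (WT) against 229 and 237 CPM (KO) (adjusted p = 0.510 from edgeR).

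Of the genes that attach ISG15 to proteins or remove it, 4 could be tested and 1 was called, against 20.9% of all genes tested. USP18, the protease that removes ISG15 and also restrains the interferon receptor, fell from 20.2 and 20.6 CPM to 13.2 and 13.2 CPM, a log2 fold change of -0.62 (standard error 0.17, adjusted p = 0.00986 from edgeR). USP18 lies on chromosome 22, where 280 of 311 tested genes had a log2 fold change below 0 and the median was -0.42, and the part of this in the fall of USP18 was not tested. It lost its call without KO replicate 1. HERC5, the main ligase of ISG15, was at 12.3 and 12.7 CPM (WT) against 14.5 and 16.6 CPM (KO) (adjusted p = 0.257 from edgeR), and its relative HERC6, with 10.0 and 10.6 CPM (WT) against 11.8 and 14.8 CPM (KO), had an adjusted p of 0.239 from edgeR.

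Around the oligoadenylates, none of 3 tested genes was called, against 20.9% of all genes tested. ABCE1, a ribosome recycling factor, had 64.8 and 71.3 CPM (WT) against 74.8 and 75.9 CPM (KO), with an adjusted p of 0.286 from edgeR. PDE12, which degrades oligoadenylates, had 78.0 and 85.9 CPM (WT) against 71.0 and 71.3 CPM (KO), with an adjusted p of 0.0967 from edgeR.

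Among 47 other interferon-stimulated genes, 25 could be tested, of which 2 were called higher and 3 lower. That was 20.0% of the 25, against 20.9% of all genes tested. The highest log2 fold change was that of IFI44L, with 0 and 2 counts (WT) against 25 and 11 (KO). Pooled, the ratio of KO to WT was 15.1, with an exact 95% counting interval from 3.89 to 130. The fitted log2 fold change of 3.77 (standard error 1.04, adjusted p = 0.0103 from edgeR), which depends on the prior count, was the highest of all 13128 tested genes. Over the alternatives it ran from 3.05 by limma-voom with quantile normalization to 7.01 without WT replicate 2, which leaves WT with 0 counts. IFI44L was not called without KO replicate 1, and DESeq2 gave it no adjusted p. IFI35 went the other way, from 2.87 and 4.82 CPM to 0.605 and 1.60 CPM, a log2 fold change of -1.83 (standard error 0.55, adjusted p = 0.0173 from edgeR), and lost its call without WT replicate 2 or KO replicate 1. It ran from -2.67 without KO replicate 2 to -1.28 without KO replicate 1.

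The other 3 called genes of this list are expressed in most cells without interferon. B2M, the light chain of MHC class I, rose from 97.8 and 101 CPM to 114 and 123 CPM, a log2 fold change of 0.25 (standard error 0.08, adjusted p = 0.0203 from edgeR), but it was not called by DESeq2 or without WT replicate 1 or KO replicate 2. LY6E, a membrane protein that limits coronavirus entry, fell from 91.8 and 94.4 CPM to 75.3 and 72.0 CPM, a log2 fold change of -0.34 (standard error 0.08, adjusted p = 0.00479 from edgeR), and was called under all 12 alternatives. TRIM14, an adaptor in MAVS signalling, had -0.33 (adjusted p = 0.0410 from edgeR) and was called under 4 of 12, losing its call with any library left out. HLA-C, the most abundant of the list, had 194 and 192 CPM (WT) against 197 and 194 CPM (KO) (adjusted p = 0.861 from edgeR). HLA genes share sequence, and HLA-B, named after its values were seen, was listed at 0 counts in every library, and how reads shared between HLA genes were counted is not stated. The plot of pathway genes shows the 64 by list.

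**Figure D4:**
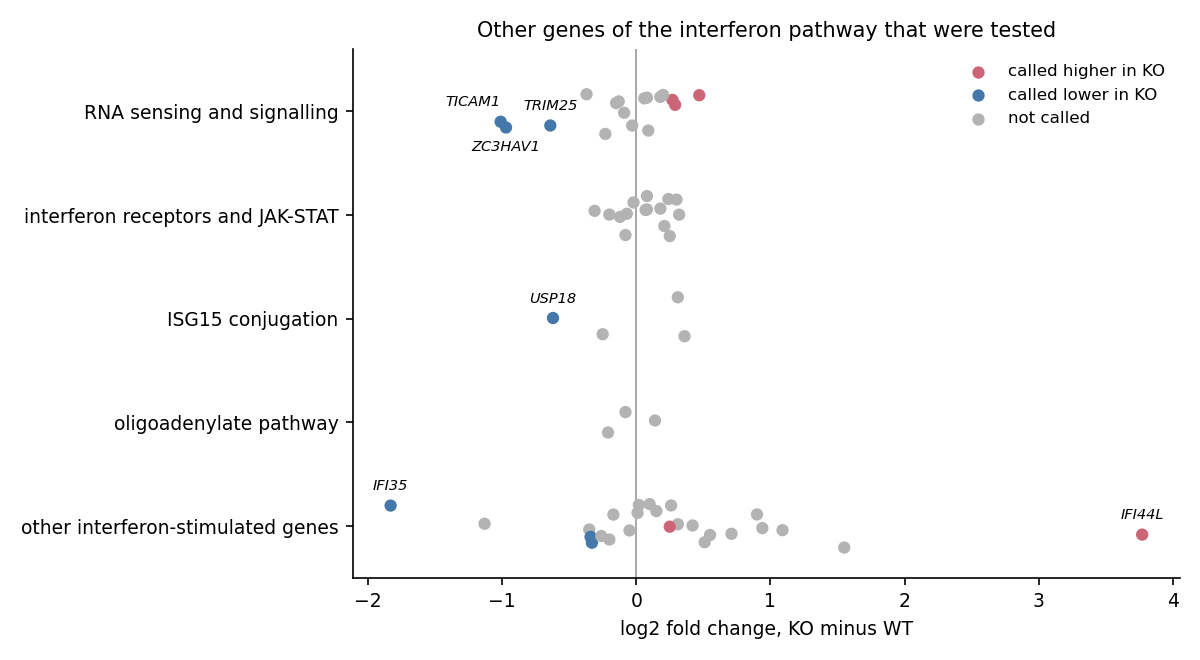
Log2 fold change of KO against WT (x axis) of the 64 tested genes in 5 pathway lists (y axis; no interferon gene could be tested); each point is 1 gene, red for those called higher, blue for those called lower and grey for the rest, with vertical scatter for legibility. The red and blue points number 5 and 7, and IFI44L stands apart at 3.77.

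As a check of the labelled cell type, all 5 markers of the embryonic kidney line were detected, with CITED1 at 99.6 to 117 CPM and PAX2 at 6.46 to 7.95 CPM. LHX1 was called higher in KO cells (log2 fold change 2.12, adjusted p = 0.0138 from edgeR). Of the markers of immune cells, which express many interferon-stimulated genes, 4 of 6 had at most 3 counts in every library. PTPRC, the marker of all leukocytes, had at most 5. The part of other cell types in the results above was not tested.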

How the data were processed

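RNA of WT and THUMPD1 KO cells (2 libraries per genotype) was analysed from a gene count table that the authors deposited, in whole read counts per gene symbol, without normalization. The aligner and build behind these counts are not stated: the submitters' processing notes name hg19 without a role, while the study's methods for RNA-seq name STAR, RSEM and GRCh38 and 3 samples per genotype. The labels name a Zymo RiboFree kit and the methods an Illumina kit. A second table, the authors' own comparison of the genotypes (log2 fold changes and p-values), was not used. The gene members and lists were chosen with earlier results of these data known.

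Counts were tested in R 4.3.3 with edgeR 4.0.16 (TMM, glmQLFit, glmQLFTest) on genes that reached 1 CPM in 2 or more libraries, and p-values were adjusted after Benjamini and Hochberg, with calls at an adjusted p under 0.05. Genotype and replicate came from the labels. The test was tried on simulated counts. Standard errors were derived from the F statistic. DESeq2 1.42.0, limma 3.58.1 (voom with quantile normalization, as in the study's methods), other scalings and filters, a stricter threshold of 0.01, the replicate number as a block, and leaving out each library in turn were alternatives. Counting intervals are exact Poisson or conditional binomial at 95% and, like the floor of 3 counts, cover counting error only, since the reads carry no molecular identifiers.

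All 9 members are named, with THUMPD1, every called gene of the pathway lists and the 3 most abundant genes of each list. Some genes of the lists are not reported here. Genes were placed by GENCODE 44 on GRCh38, 17289 by symbol and 1196 through RefSeq synonyms. Shared sequence was found with blastn 2.17.0 (100 bases, 90% identity), and promoters were read from RefSeq (GRCh38.p14). Replicates differed by more than sampling noise (chi-square over its degrees of freedom 4.08 for WT and 6.90 for KO) and were each kept. Tables and figures were made with Python 3.11.15, pandas 2.3.3, SciPy 1.17.1 and matplotlib 3.10.9.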

Additional observations from a re-analysis of the deposited data

How the results depend on the processing

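No member was called under any of the 8 other scalings, filters and tools, at an adjusted p of 0.01, or with any library left out, and over these settings the smallest adjusted p of a member ran from 0.299 to 0.580. IFIT1 and DDX58 stayed below 0, and OAS3 above 0, wherever they were tested. ISG15 turned to -0.19 by limma-voom with quantile normalization, and IFIH1 to 0.02 with library size alone and 0.06 with the replicate block. With a library left out, ISG15 ran from -0.85 to 0.96 (-0.15 without WT replicate 1), IRF9 from -0.47 to 0.75 and IFIH1 from -0.59 to 1.04 (0.31 without KO replicate 1). The lone library was then assumed to vary like the other genotype. DESeq2 gave IFIH1 no adjusted p. The number of members above 0 was 3 of 6 in the main analysis, 5 of 8 without a filter and 1 of 3 with at least 10 counts in every library, filters that change which members are tested, and 2 to 3 with a library left out.

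Over all genes, 2748 were called in the main analysis, 1764 by DESeq2 and 1594 at an adjusted p of 0.01, and 1620 to 2591 with a library left out, the fewest without KO replicate 1. Of the pathway genes 12 were called, 4 by DESeq2, 4 at an adjusted p of 0.01, 11 without those of chromosomes 16 and 22, and 5 to 10 with a library left out, again the fewest without KO replicate 1; the cause was not tested. Scaling by library size alone moved the share of calls that were lower from 58.0% to 35.8%. Same-numbered libraries showed little shared deviation (correlation 0.0614). With 2 libraries per genotype this cannot settle whether the numbers pair the samples. The replicate block gave 3222 calls over all genes, 14 among the pathway genes and 0 among the members. Depth limits these comparisons: among genes of 1.09 to 4.35 CPM, the range of the tested members, the smallest called log2 fold change was 1.07.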
